A study of Homo sapiens with 31 samples.

Results

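The H/ACA box small nucleolar RNAs (gene symbols starting SNORA) and the small Cajal body RNAs (symbols starting SCARNA) were represented by 81 members, 61 SNORA and 20 SCARNA, among 22395 genes measured on 31 microarrays of human Caco-2 cells. A member was any such symbol with a probe set annotated to that gene alone. The 90 probe sets that met this rule were reduced to 1 per symbol, chosen by the highest mean over all 31 arrays, so the overall level chose the probe set and no comparison between groups did. 5 members had several probe sets, and for SNORA21 the rows averaged 8.67 and 5.51 on the log2 scale. A further 34 symbols of these families stood only on probe sets that name several genes and were not analysed here.

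Caco-2 is an established line from a colorectal adenocarcinoma that forms a layer of enterocyte-like cells. It was grown for 21 days either in a gut-on-chip, where medium flowed past the cells, or on static Transwell inserts, and then kept for 6 h with a metal oxide nanomaterial or with its own control medium, the dispersion medium without the metal oxide; in the chips the flow was stopped for those hours. The chip groups were ZnO at 80 µg/mL, ZnO control, TiO2 at 100 µg/mL and TiO2 control. The Transwell groups were ZnO at 10 µg/mL, ZnO control, TiO2 at 50 µg/mL and TiO2 control. Each group had 4 arrays except Transwell TiO2, which had 3, and the concentrations differ between systems because the submitters aimed at equal deposited doses. The labels do not say that replicates were separate cultures, so the p-values measure the spread between these samples, which may be technical.

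H/ACA RNAs are guides: each pairs with a short stretch of a target RNA and directs the enzyme dyskerin, held in a particle with NOP10, NHP2 and GAR1, to turn a uridine into pseudouridine. SNORA members act mostly on ribosomal RNA in the nucleolus, and Cajal RNAs act on the small nuclear RNAs of the spliceosome in Cajal bodies, where WRAP53 holds them. Most human guides have no promoter of their own and are released from the introns of other genes during splicing. Not every SCARNA symbol is an H/ACA RNA: SCARNA2, SCARNA7, SCARNA9L and SCARNA17 are box C/D guides, which direct methylation, and SCARNA5, SCARNA6 and SCARNA10 carry both boxes. Silica columns of the kind used here are known to retain short RNAs unevenly, and their recovery was not measured.

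All values below are log2 values from robust multi-array averaging (RMA), and a difference of 1 is a doubling of signal. A gene passed where its limma p-value, adjusted over all 22395 genes by the Benjamini-Hochberg method, was below 0.05. All 10 listed markers of Caco-2 cells exceeded the array medians in all 8 groups. Of 10 measured markers of leukocytes, fibroblasts and other cells, 4 also did (CD14, LYZ, COL1A1 and LUM) and 4 never did (PTPRC, CD3E, COL1A2 and DCN), with list means of 3.74 to 4.31 in chip groups and 3.84 to 4.18 in Transwell groups; their part in the results was not tested. On the third principal component the chip TiO2 array numbered 4 lay at -12.2, against 9.63 to 15.8 for the other chip TiO2 arrays, and the chip TiO2 control array numbered 4 lay at 9.0, against -20.6 to -14.5 for its group. These arrays are used under their labels, and the counts without both are given beside the results. By median the members as a group were highest on chip ZnO control replicate 2. There 67 of 81 exceeded their own mean over all arrays, and the median deviation was 0.539. It was -0.134 to -0.0099 on the other arrays of that group. Counts of called members that turn on chip ZnO control replicate 2 are given without it, but those split by length or set beside host genes are not. Chip ZnO replicate 1 was also high, with 66 above and a median of 0.441, against -0.185 to 0.0533 in the rest of its group. So was chip TiO2 replicate 4, with 71 above and a median of 0.420, against -0.350 to -0.166. On the third component chip ZnO replicate 1 lay at -21.9, and the other chip ZnO arrays at 6.56 or above. The ZnO and TiO2 sets each had a control medium of their own, so medium, set and any difference in handling between the sets cannot be told apart.

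Most members gave signal above the middle of the arrays. A member counted as above in a group when its group mean exceeded the median of all probe sets on every array of that group; these medians ran from 3.243 to 3.333. The number above was 72 of 81 (88.9%) in chip ZnO, 69 (85.2%) in chip ZnO control, 69 in chip TiO2 and 68 (84%) in chip TiO2 control. On Transwell inserts it was 70 (86.4%) in ZnO, 71 (87.7%, with 1 more between the medians) in ZnO control, 69 (85.2%) in TiO2 and 69 in TiO2 control. Over all genes the share was 63.1% to 63.7%, and over 157 box C/D small nucleolar RNAs (SNORD) it was 49% to 51.6%. These shares describe the members as chosen, the brightest probe set per symbol, and were not tested.

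67 members, 52 SNORA and 15 SCARNA, exceeded the medians in all 8 groups. 8 stayed below in every group: SCARNA14, SCARNA15, SCARNA23, SNORA11C, SNORA30, SNORA35, SNORA58 and SNORA70C. SNORA35 is known as a brain RNA from an intron of the serotonin receptor gene HTR2C. The other 6 (SCARNA1, SCARNA18, SNORA2B, SNORA36C, SNORA70F and SNORA77) crossed the medians between groups. The members nearest the medians over all arrays were SNORA36C at 2.90 and SCARNA23 at 2.86 below, and SNORA2B at 3.38, SNORA77 at 3.43 and SCARNA18 at 3.43 above.

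The 10 probe sets with the highest mean over all arrays were those of SNORA47 (11.25), SNORA57 (11.21), SNORA68 (10.87), SNORA23 (10.39), SNORA71C (10.27), SCARNA17 (10.22), SNORA50A (10.09), SNORA71A (10.00), SNORA49 (9.64) and SNORA22 (9.42). The 5 lowest were SNORA11C (1.67), SCARNA15 (1.76), SNORA30 (1.99), SNORA70C (2.33) and SCARNA14 (2.35). Probe sets bind with different strength, so this order is one of signal and not of RNA abundance. The distance between the highest and the lowest of the 8 group means ran from 0.269 for SNORA57 to 2.58 for SNORA38B, with a median of 0.854 over the 81 members. Members also varied within groups: their median within-group SD was 0.438 in chips and 0.266 on Transwell inserts, against 0.256 and 0.199 for all genes. For the SNORD genes it was 0.320 in chips and 0.267 on Transwell inserts.

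**Figure D1:**
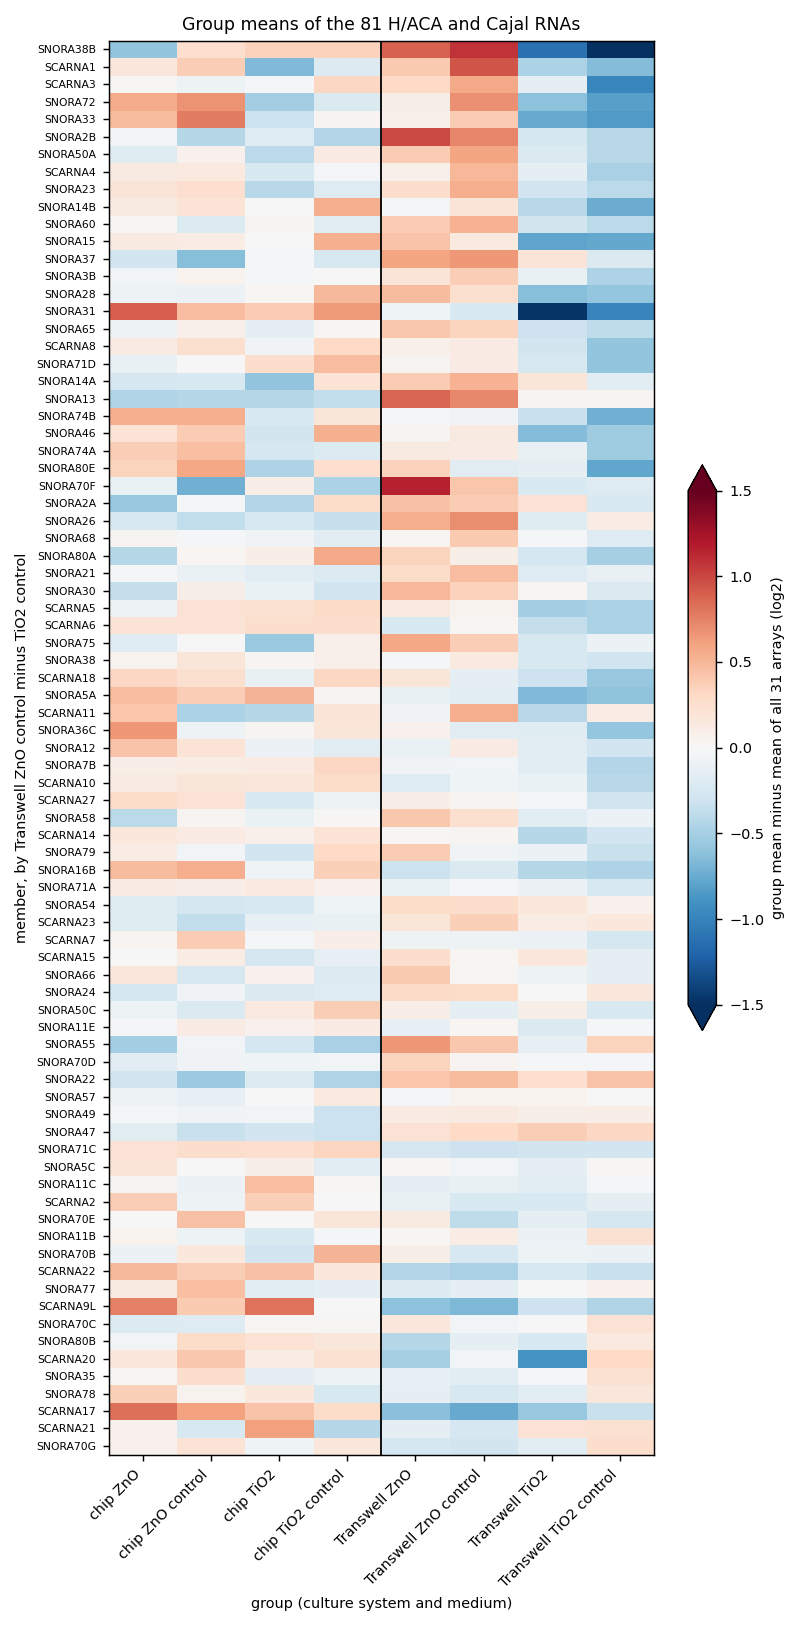
Group mean minus the mean of all 31 arrays (log2, colour) for each of the 81 members (rows), with the 4 chip groups left of the 4 Transwell groups; rows run by the difference between Transwell ZnO control and Transwell TiO2 control. SNORA38B, in the top row, has the widest range of group means, 2.58, and SNORA57 the narrowest, 0.269.

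On Transwell inserts all members called between the 2 control media lay on the same side. 12 members were higher in Transwell ZnO control than in Transwell TiO2 control, and none passed as lower (limma; at an unadjusted p below 0.05 there were 30, of which 29 were higher). They were 14.8% of the members, while 6.64% of all genes passed, 2.88% as higher (644) and 3.76% as lower (842). The median difference over the 81 members was 0.405, against -0.006 over all genes and 0.166 over the SNORD genes, of which 2 passed as higher. Neither group had received a metal oxide. With array weights 26 members passed, 25 as higher and 1 as lower, and with these groups fitted alone 23 passed, all higher. The shares of all genes under these settings are not given here, so these counts cannot be set beside the 6.64%. In these bulk samples fewer cells of a kind and less RNA per cell cannot be told apart.

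SNORA38B, a near copy of the ribosomal RNA guide SNORA38, had the widest difference. It read 9.72, 10.01, 9.85 and 9.60 in Transwell ZnO control, against 7.27, 7.17, 7.10 and 7.32 in Transwell TiO2 control, a difference of 2.58 ± 0.53 (SE) with an adjusted p of 0.0028. The groups were far apart, and the exposed Transwell groups lay on the same sides: 10.10, 9.40, 9.32 and 9.54 with ZnO, against 7.84, 7.58 and 7.33 with TiO2. In chips the same probe set spread widely inside each group. It read 9.03, 7.90, 7.66 and 7.88 with ZnO, 9.08, 10.24, 8.71 and 7.78 in ZnO control, 8.51, 8.70, 7.59 and 11.42 with TiO2, and 8.02, 8.72, 9.88 and 9.61 in TiO2 control. The chip groups overlapped one another throughout, and the 11.42 belonged to the chip TiO2 array numbered 4.

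Among the Cajal RNAs, SCARNA1, SCARNA3 and SCARNA4 were higher in Transwell ZnO control. SCARNA3 read 6.49, 6.62, 6.36 and 5.94 there, against 5.16, 5.06, 3.89 and 5.15 in Transwell TiO2 control (difference 1.54 ± 0.32 SE, adjusted p 0.00291). SCARNA1 read 3.18, 3.92, 3.86 and 4.21, against 2.07, 2.68, 1.96 and 2.07 in Transwell TiO2 control (1.59 ± 0.32, adjusted p 0.00226). Its group mean was above the array medians in Transwell ZnO control and below them in the other 7 groups (3.79 against 2.19 to 3.25). SCARNA4 averaged 7.36 ± 0.32 in Transwell ZnO control and 6.37 ± 0.17 in Transwell TiO2 control (SD, n = 4 each), a difference of 0.99 with an adjusted p of 0.00517.

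Of the SNORA members, SNORA50A and SNORA23 are among the brightest probe sets. SNORA50A read 10.59, 10.85, 10.76 and 10.50 in Transwell ZnO control, against 9.45, 9.75, 9.80 and 9.68 in Transwell TiO2 control (1.01 ± 0.24 SE, adjusted p 0.00832). SNORA23 read 10.86, 11.14, 10.94 and 10.79, against 10.09, 9.90, 9.91 and 10.04 in Transwell TiO2 control (0.95 ± 0.24, adjusted p 0.0166). Neither pair of groups overlapped. SNORA37 differed by 0.87 ± 0.21 (adjusted p 0.0102) and SNORA68 by 0.59 (adjusted p 0.0109). SNORA3B (0.83) and SNORA65 (0.72) also passed and are named after their values were seen.

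SNORA33 and SNORA2B passed less firmly. SNORA33 read 9.18, 8.97, 9.10 and 8.64 in Transwell ZnO control, against 7.77, 7.49, 7.89 and 7.81 in Transwell TiO2 control (1.23 ± 0.34 SE, adjusted p 0.0255). SNORA2B read 4.17, 3.76, 3.97 and 4.54, against 2.83, 3.11, 3.04 and 2.88 in Transwell TiO2 control (1.14 ± 0.34, adjusted p 0.0372). The groups of both members were apart on every array. The SNORA33 call was lost without Transwell ZnO control replicate 1, 2 or 3 or Transwell TiO2 control replicate 2 or 4, and the SNORA2B call without any 1 of the 8 arrays but Transwell ZnO control replicate 2, with adjusted p-values up to 0.113. Both were also lost with all probe sets tested, SNORA33 at 0.0539 and SNORA2B at 0.0763.

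**Figure D2:**
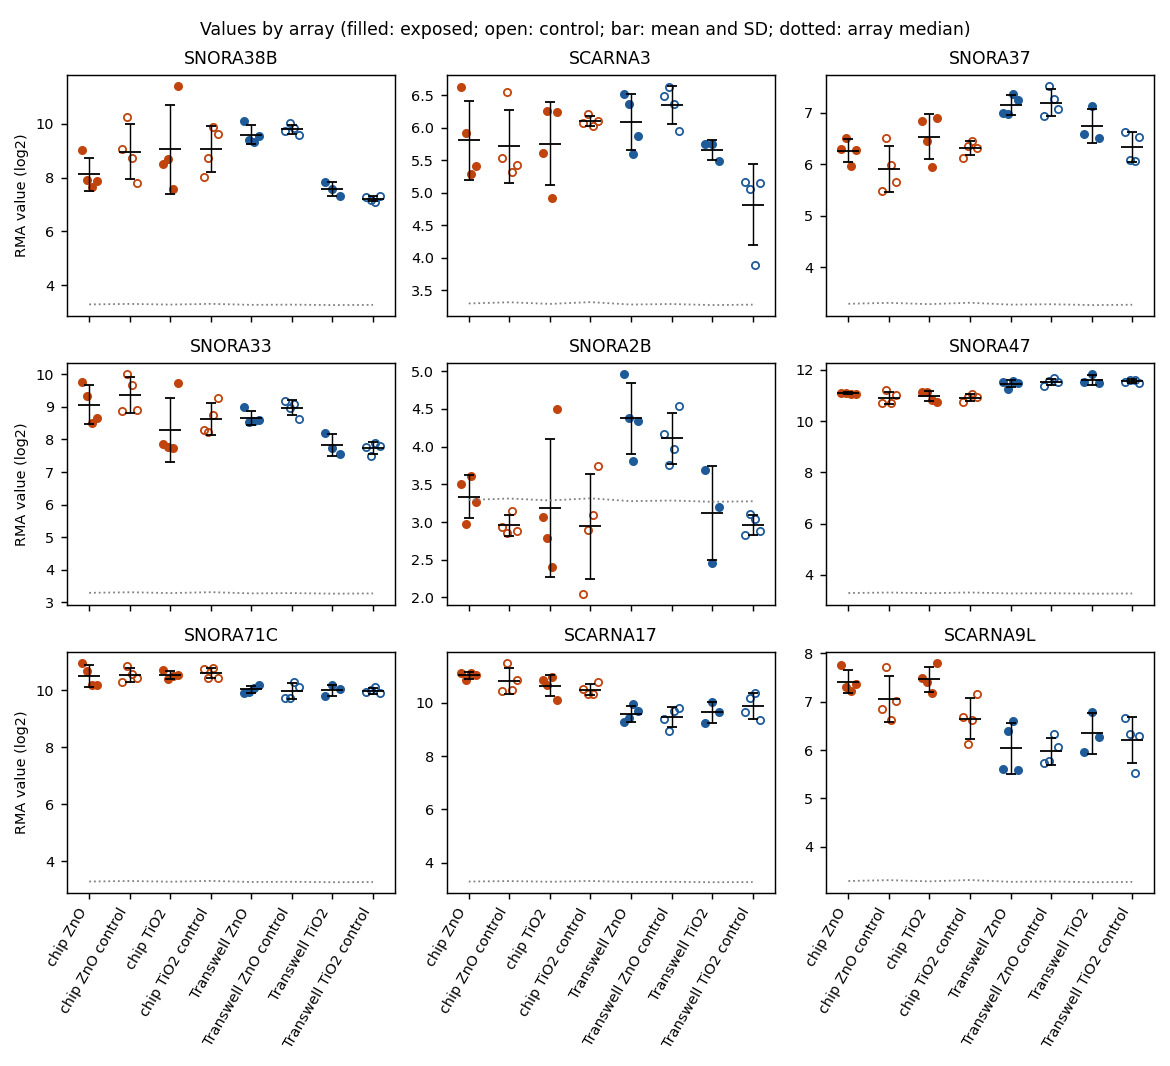
RMA value (log2) on every array for 9 members, by group, with chip groups in orange left of Transwell groups in blue; filled points are exposed and open points control arrays, bars give the mean and SD, and the dotted line is the array median. SNORA38B lies at 9.60 to 10.01 in Transwell ZnO control and at 7.10 to 7.32 in Transwell TiO2 control, while its chip groups overlap.

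The exposed Transwell arrays, which are not in the control contrast, gave a comparison of the same sets. 6 members were higher in Transwell ZnO than in Transwell TiO2 and none passed as lower (limma; 18 at an unadjusted p below 0.05, all higher), which is 7.41% of the members beside 8.33% of all genes (3.99% higher and 4.34% lower). They were SNORA38B (2.00, adjusted p 0.0253), SNORA31 (1.41, 0.0275), SNORA2B (1.26, 0.0281), SNORA15 (1.22, 0.0218), SNORA28 (1.11, 0.0345) and SNORA13 (0.83, 0.0263), none with overlapping groups. SNORA31 read 5.54, 5.93, 6.06 and 5.36 in Transwell ZnO, against 4.25, 4.34 and 4.34 in Transwell TiO2. Each of the 6 lost its call without at least 3 of the 7 arrays taken singly, and without Transwell TiO2 replicate 3 none passed. Array weights gave 19 and a fit of these groups alone 21, with no share of all genes under these settings given here. With all probe sets tested, 1 passed, SNORA15, and SNORA15 itself was lost with the mean of all its rows (0.78, adjusted p 0.103). The metal oxide and its dose differ between these groups as well as the set.

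Both Transwell contrasts called SNORA2B and SNORA38B, which is 2 of the 12 members called between controls and 2 of the 6 called between exposed groups. Over all 81 members the sign was the same in 68 (84%), against 69.4% of all genes, and the differences correlated across members with r = 0.732, against 0.679 across all genes. The contrasts share no arrays, but they share the sets, and probe sets of near copies share sequence, so r is a description.

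**Figure D3:**
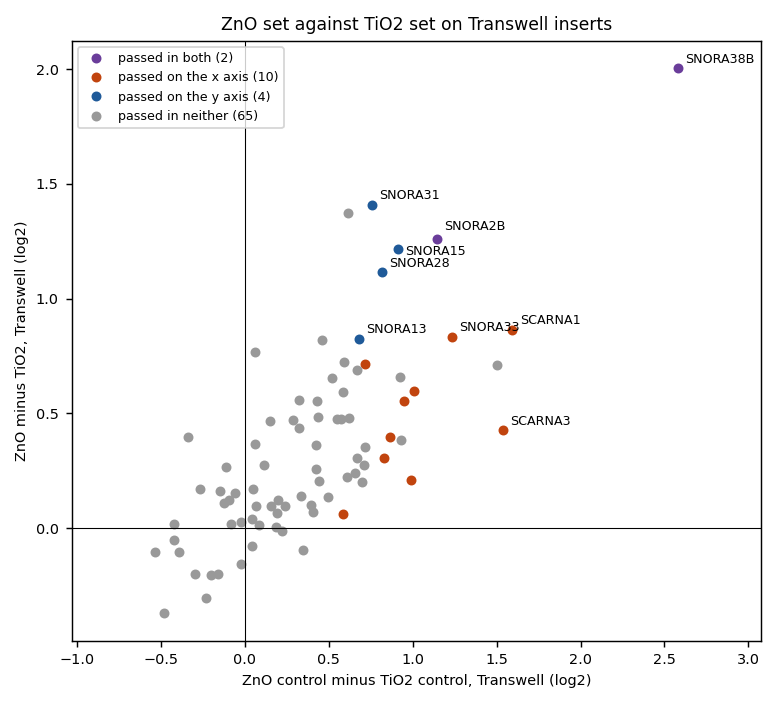
Each point is 1 of the 81 members: the difference between Transwell ZnO control and Transwell TiO2 control (x, log2) against that between Transwell ZnO and Transwell TiO2 (y, log2), coloured by which difference passed. 2 members passed in both, 10 between the controls alone and 4 between the exposed groups alone, and SNORA38B lies farthest out at 2.58 and 2.00.

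In chips the same contrast between control media gave no call (limma; 5 members at an unadjusted p below 0.05, 3 of them higher), where 0.058% of all genes passed (0.0134% higher and 0.0447% lower). The smallest p-values belonged to SNORA57 (-0.27, adjusted p 0.361), SNORA74A (0.66, 0.361) and SNORA77 (0.60, 0.414). Without both chip TiO2-set arrays numbered 4, 1 member passed, SNORA55 at 0.82 (adjusted p 0.0291). ZnO against TiO2 in chips likewise gave no call (11 members at an unadjusted p below 0.05, 9 of them higher; 0.393% of all genes passed, 0.223% as higher and 0.17% as lower), with SNORA23 (0.91, adjusted p 0.0316) and SNORA33 (1.28, 0.0104) passing without both arrays numbered 4.

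Between culture systems, averaged over both control media, 19 members were higher in chips and 7 lower, which is 32.1% of the members beside 33.5% of all genes (14.6% higher and 18.9% lower). The members' share called was thus near that of all genes. The split by direction turned on 1 array: without chip ZnO control replicate 2, 11 members were higher and 13 lower. The median difference was 0.142 for members and -0.004 for all genes, while 10 SNORD genes passed as higher and 39 as lower. By medium, 18 members passed as higher and 3 as lower in TiO2 control medium, 25.9% of the members beside 22.9% of all genes (9.42% higher and 13.5% lower). In ZnO control medium 5 passed as higher and 9 as lower, 17.3% of the members beside 27.2% of all genes (12.3% and 14.9%); without chip ZnO control replicate 2 it was 5 and 17, and without chip ZnO control replicate 3 it was 8 and 8. After TiO2 9 were higher and 1 lower, 12.3% of the members beside 18.2% of all genes (7.92% and 10.2%), with 3 in all without Transwell TiO2 replicate 1 6 without Transwell TiO2 replicate 3 or chip TiO2 replicate 1, and 4 higher and 3 lower without chip TiO2 replicate 4. After ZnO 5 were higher and 12 lower, 21.0% of the members beside 29.8% of all genes (13.3% and 16.5%). Here 7 were lower without Transwell ZnO replicate 4 or chip ZnO replicate 2 or 3, and 3 were higher without chip ZnO replicate 1 or Transwell ZnO replicate 1 or 2. Without both chip TiO2-set arrays numbered 4 the counts were 21 and 10 over both control media, 20 and 3 in TiO2 control medium, 4 and 3 after TiO2, and 6 and 14 after ZnO.

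6 of the 20 Cajal RNAs were higher in chips over both control media, where 14.6% of all genes were, and they include box C/D and H/ACA guides. Without chip ZnO control replicate 2, 5 Cajal RNAs were higher and 2 lower. Length moved with these calls: 5 of the 6 are 266 to 421 bases long by the RefSeq annotation, and SCARNA22 has 125. Of the 10 members of 200 bases or more, 6 were higher in chips and none passed as lower, with a median difference of 0.459. Of the 71 shorter ones 13 were higher and 7 lower, with a median of 0.076. SCARNA7 and SNORA74B, both among those 6, lost their calls without chip ZnO control replicate 2. Over members of any length 11 were then higher and 13 lower, and the split by length without that array is not given here. The part of length or of column recovery in these calls was not tested. SCARNA17, a box C/D guide for small nuclear RNA, read 10.46, 11.51, 10.49 and 10.85 in chip ZnO control, against 9.40, 8.95, 9.70 and 9.80 in Transwell ZnO control (1.36 ± 0.24 SE, adjusted p 6.36e-05). The groups did not overlap, and with ZnO itself they were as far apart, at 11.12, 10.85, 11.14 and 11.05 in chips and 9.28, 9.43, 9.96 and 9.71 on Transwell inserts (1.45, adjusted p 2.52e-05). In TiO2 control medium SCARNA17 did not pass; it read 10.51, 10.35, 10.34 and 10.78 in chips and 9.65, 10.17, 10.38 and 9.35 on Transwell inserts, with overlap.

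SCARNA9L, an X-linked copy of the box C/D guide SCARNA9, read 6.85, 7.72, 6.63 and 7.01 in chip ZnO control, against 5.74, 5.77, 6.33 and 6.07 in Transwell ZnO control (1.07, adjusted p 0.00241). With ZnO the difference was 1.37 (adjusted p 0.000157) and with TiO2 1.12 (0.00541). SCARNA22, an H/ACA RNA without a known target that lies in the histone methyltransferase gene NSD2, read 7.14, 7.07, 7.34 and 7.50 in chip ZnO control, against 5.75, 6.57, 6.69 and 6.58 in Transwell ZnO control (0.87, adjusted p 0.000769). The calls after TiO2 for SCARNA9L, SCARNA17 and SCARNA22 were lost without Transwell TiO2 replicate 1, at adjusted p-values of 0.0517, 0.0689 and 0.0861; that for SCARNA22 was also lost without Transwell TiO2 replicate 3 or chip TiO2 replicate 1 or 4. Over both control media SCARNA10 (0.47), SCARNA6 (0.45) and SCARNA7 (0.41) passed too. None of them passed in ZnO control medium (0.25, 0.17 and 0.46, limma adjusted p 0.306, 0.624 and 0.106). The SCARNA7 call was lost without Transwell or chip TiO2 control replicate 4, Transwell ZnO control replicate 1 or 2, or chip ZnO control replicate 2. It was also lost without both chip TiO2-set arrays numbered 4. In TiO2 control medium the Cajal RNAs that passed were SCARNA3 (1.29, adjusted p 0.00298), SCARNA8 (0.89), SCARNA5 (0.76), SCARNA6 (0.74) and SCARNA10 (0.69), all higher in chips. There the SCARNA5 call was lost without chip TiO2 control replicate 2, 3 or 4 or Transwell TiO2 control replicate 1 or 4. It was also lost with all probe sets tested. The SCARNA8 call was lost without chip TiO2 control replicate 1 or 3 or Transwell TiO2 control replicate 1.

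2 SNORA members passed in the same direction in all 4 media. SNORA71C, from a family of near copies, read 10.74, 10.44, 10.79 and 10.44 in chip TiO2 control, against 9.92, 10.01, 10.12 and 9.89 in Transwell TiO2 control (0.62, adjusted p 0.00494). In chip ZnO control it read 10.29, 10.86, 10.56 and 10.42, against 9.73, 9.73, 10.28 and 10.11 in Transwell ZnO control (0.57, 0.00719), and it differed by 0.53 after TiO2 and 0.47 after ZnO. SNORA47 was lower in chips. It read 10.75, 10.93, 11.06 and 10.94 in chip TiO2 control, against 11.52, 11.61, 11.62 and 11.49 in Transwell TiO2 control (-0.64, adjusted p 0.000128), and 10.71, 11.20, 10.72 and 11.01 in chip ZnO control, against 11.39, 11.57, 11.68 and 11.53 in Transwell ZnO control (-0.63, 0.000103). After TiO2 it differed by -0.65 (0.000349) and after ZnO by -0.37 (0.0139). In each medium every chip array of SNORA47 lay below every Transwell array.

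Among the other SNORA members higher in chips, SNORA31 averaged over both control media a difference of 1.17 (adjusted p 7.98e-04), SNORA80E 0.89 (0.0015) and SNORA74B 0.75 (0.0158, and 0.052 without chip ZnO control replicate 2). None of these members passed in ZnO control medium (0.70, 0.75 and 0.60, limma adjusted p 0.192, 0.0713 and 0.226). In TiO2 control medium SNORA38B (1.84, 0.0103), SNORA31 (1.64, 0.00165), SNORA14B (1.29, 0.00848), SNORA80A (1.07, 0.00366) and SNORA46 (1.06, 0.0152) passed; SNORA46 had 0.0623 without chip TiO2 control replicate 2. SNORA31 read 6.10, 7.10, 6.67 and 5.84 in chip TiO2 control, against 5.28, 5.13, 3.92 and 4.83 in Transwell TiO2 control. These contrasts share the Transwell TiO2 control arrays with the contrast between control media above. After TiO2, SNORA31 (1.85, 0.00142) and SNORA5A (1.17, 0.000646) were higher in chips.

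Among those lower in chips, SNORA22 differed by -0.94 (adjusted p 6.37e-05), SNORA13 by -0.77 (0.000189), SNORA26 by -0.76 (0.000846), SNORA37 by -0.65 (0.000745) and SNORA55 by -0.63 (0.00505) over both control media. The SNORA37 difference lay in ZnO control medium, since in TiO2 control medium it averaged 6.31 in chips and 6.33 on Transwell inserts. SNORA55 did not pass in ZnO control medium (-0.44, limma adjusted p 0.213), nor SNORA13 and SNORA26 in TiO2 control medium. SNORA37 read 5.48, 6.51, 5.98 and 5.65 in chip ZnO control, against 6.93, 7.52, 7.26 and 7.07 in Transwell ZnO control (-1.29, adjusted p 1.89e-05). SNORA13 read 5.16, 5.73, 5.22 and 5.46, against 6.51, 6.43, 6.67 and 6.52 in Transwell ZnO control (-1.14, 0.000162). Both sets of groups were apart. SNORA26 (-1.07, 0.00126) and SNORA2B (-1.15, 0.00974) passed in the same medium. The contrast in ZnO control medium shares the Transwell ZnO control arrays with the contrast between control media above, where SNORA37 and SNORA2B had passed. After ZnO, SNORA13 (-1.32, adjusted p 2.1e-05), SNORA55 (-1.16, 0.000519), SNORA37 (-0.88, 0.00142) and SNORA38B (-1.47, 0.0338) were lower in chips; the SNORA38B call was lost without Transwell ZnO replicate 1 or 4 or chip ZnO replicate 2, 3 or 4.

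The 2 control media shared few called members. In TiO2 control medium and ZnO control medium, which share no arrays, the called lists shared SNORA71C among 18 and 5 higher members, and SNORA22 and SNORA47 among 3 and 9 lower members. The differences correlated across the 81 members with r = 0.335, against 0.750 across all genes, and had the same sign in 52 members (64.2%), against 67.4% of all genes. Between ZnO control medium and after ZnO, 4 of 5 and 5 higher members and 6 of 9 and 12 lower members were shared, with r = 0.791, against 0.878 across all genes. Between TiO2 control medium and after TiO2, 4 of 18 and 9 higher members and 1 of 3 and 1 lower members were shared, with r = 0.522, against 0.806 across all genes. The difference between the media was itself tested. 3 members passed, with a chip minus Transwell difference lower in ZnO control than in TiO2 control medium: SNORA38B (-2.68 ± 0.75 SE, adjusted p 0.0472), SCARNA3 (-1.93 ± 0.45, 0.0174) and SNORA37 (-1.27 ± 0.30, 0.0178). They were 3.7% of the members, while 2.74% of all genes passed (1.69% higher and 1.05% lower). This test holds the arrays of the contrast between Transwell control media above, in which the same members had already passed. There SNORA38B, SCARNA3 and SNORA37 differed by 2.58, 1.54 and 0.87. Between the control media in chips they differed by -0.10, -0.39 and -0.40, without a call. The test is thus not separate from the Transwell contrast. 8 members passed without chip ZnO control replicate 2. The SNORA38B call was lost under 14 of the 16 omissions of a single array, with all probe sets tested (adjusted p 0.096), with arrays centred on their medians (0.0506) and with the replicate number as a block (0.0608).

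**Figure D4:**
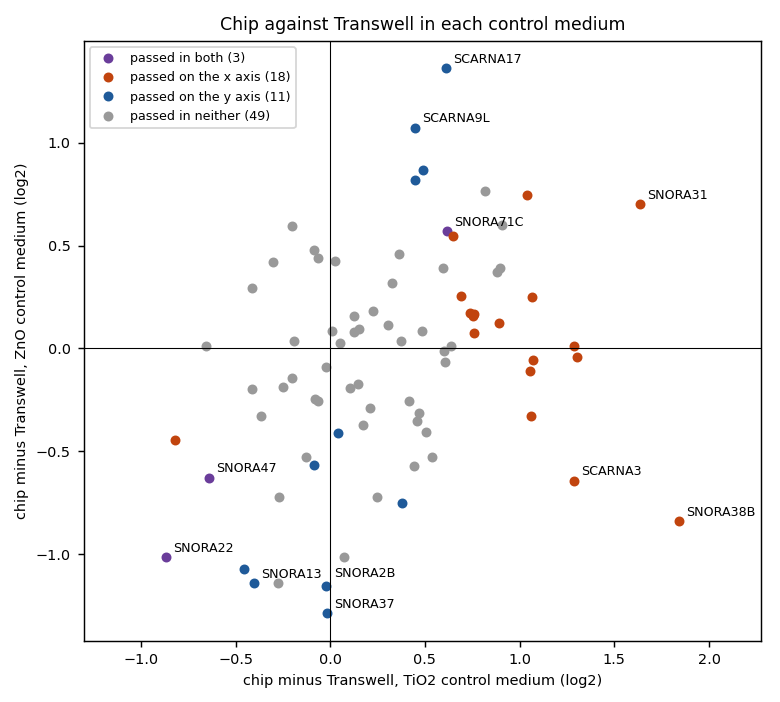
Each point is 1 of the 81 members: the chip minus Transwell difference in TiO2 control medium (x, log2) against that in ZnO control medium (y, log2), coloured by where it passed. 3 members passed in both media, 18 in TiO2 control alone and 11 in ZnO control alone, and SNORA38B and SCARNA3 lie right of and below the origin.

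The exposures themselves gave no call among the members. With limma, TiO2 against its control gave 0 members in chips, with 9 at an unadjusted p below 0.05 and a smallest adjusted p of 0.310, and 0 on Transwell inserts, with 2 and 1.0; 0% of all genes passed in either system. ZnO against its control gave 0 members in chips, where 0.272% of all genes passed (0.237% higher and 0.0357% lower), with 3 at an unadjusted p below 0.05 and a smallest adjusted p of 0.199. It gave 0 on Transwell inserts, with 1 and 1.0, and there 0% of all genes passed. The members with the smallest p in chips were SCARNA21 after TiO2 (1.05, adjusted p 0.310) and SNORA36C after ZnO (0.73, 0.199). SCARNA21 passed without both chip TiO2-set arrays numbered 4 (1.29, adjusted p 0.0499). On Transwell inserts they were SCARNA20 after TiO2 (-1.19, adjusted p 1.0), with 3.56 after TiO2 and 4.75 in control, and SNORA68 after ZnO (-0.36, 1.0). The differences between chip and Transwell responses gave no call either, with 7 members for TiO2 and 3 for ZnO at an unadjusted p below 0.05, and 0% and 0.00447% of all genes passed; the smallest p belonged to SNORA80E (-1.37, adjusted p 0.762) and SCARNA11 (1.49, 0.824).

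By the RefSeq annotation, 78 of the 81 members lie inside the span of at least 1 protein-coding or long noncoding gene, and SCARNA2, SNORA50C and SNORA7B do not. The table used gives no strand, so a gene on the other strand can be among these hosts. 60 of the 83 host genes were measured, for 63 members and 66 pairs. Of 22 members with a measured host that passed between systems over both control media, the host passed in the same direction for 9, in the opposite direction for 2 and not at all for 11. In TiO2 control medium these counts were 4, 4 and 11 of 19 members, and in ZnO control medium 4, 1 and 6 of 11. After TiO2 they were 2, 0 and 5 of 7, and after ZnO 8, 1 and 7 of 16. Over both control media 13 of all 60 measured hosts were higher and 16 lower, while 14.6% of all genes were higher and 18.9% lower. SNORA31 and TPT1, which encodes an abundant translation-controlled protein, were both higher in chips (TPT1 1.08, adjusted p 8.02e-05). SNORA47 and ZBED3, a zinc finger gene, were both lower (ZBED3 -2.04, adjusted p 3.56e-11), as were SNORA26 and the long noncoding RNA gene DANCR (-0.59). SCARNA9L and EIF1AX, a translation initiation factor gene (-0.29), moved in opposite directions, as did SNORA71C and SNHG17 (-0.22, 0.039).

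**Figure D5:**
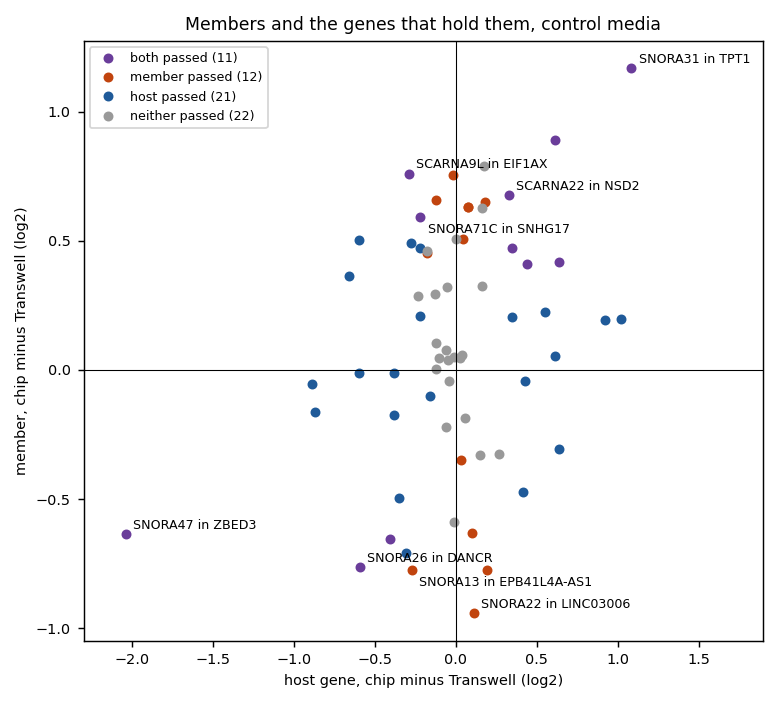
Each point is a member and a gene that holds it: the chip minus Transwell difference over both control media of the host (x, log2) and of the member (y, log2), for 66 pairs, coloured by which passed. Both passed in 11 pairs, the member alone in 12, the host alone in 21 and neither in 22; SNORA47 in ZBED3 lies farthest left, at -2.04.

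On Transwell inserts few host genes passed at all: 3 of the 60 measured were higher and 1 lower in Transwell ZnO control, close to the 6.64% of all genes. Of the 8 members with a measured host that were higher in Transwell ZnO control than in Transwell TiO2 control, no host passed in either direction. NOL11, the ribosome biogenesis gene that holds SNORA38B, differed by 0.32 (adjusted p 0.294), COP1, which holds SCARNA3, by 0.30 (0.14), IPO7, which holds SNORA23, by 0.09, and CNOT1, which holds SNORA50A, by -0.07. The largest difference among the 8 hosts was that of RPL12, which holds SNORA65, at 0.62 (0.0935). Member and host were not tested against each other, and a gene that does not pass is not shown to be level.

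Many hosts of guide RNAs start transcription at a run of pyrimidines. Start windows are shown for 8 hosts: 6 that hold members higher in Transwell ZnO control than in Transwell TiO2 control, and ZBED3 and SNHG17, which hold SNORA47 and SNORA71C, called between systems in all 4 media. Each window runs from 30 bases before to 20 bases from the annotated start, in RefSeq on GRCh38.p14, 5′ to 3′ on the gene's strand. Capitals mark CTTTC.
NOL11 (holds SNORA38B, chr17:67717906-67717955, plus strand): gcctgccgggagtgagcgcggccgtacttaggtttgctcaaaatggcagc
PPP1R8 (holds SCARNA1, chr1:27830752-27830801, plus strand): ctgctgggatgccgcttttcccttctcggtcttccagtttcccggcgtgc
COP1 (holds SCARNA3, chr1:176207267-176207316, minus strand): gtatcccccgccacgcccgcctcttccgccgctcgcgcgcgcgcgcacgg
RPS12 (holds SNORA33, chr6:132814539-132814588, plus strand): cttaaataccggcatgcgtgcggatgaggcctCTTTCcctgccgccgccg
KANSL2 (holds SNORA2A and SNORA2B, chr12:48682219-48682268, minus strand): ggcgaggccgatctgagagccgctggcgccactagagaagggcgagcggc
IPO7 (holds SNORA23, chr11:9384622-9384671, plus strand): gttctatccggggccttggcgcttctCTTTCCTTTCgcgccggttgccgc
ZBED3 (holds SNORA47, chr5:77087266-77087315, minus strand): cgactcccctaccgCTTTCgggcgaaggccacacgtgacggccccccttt
SNHG17 (holds SNORA71A, SNORA71C and SNORA71D, chr20:38435309-38435358, minus strand): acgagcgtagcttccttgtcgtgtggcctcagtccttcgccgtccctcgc

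CTTTC was searched in each window on the gene's strand and on the other strand, where it reads GAAAG. It stood on the gene's strand in 11 of the 69 host genes with a window (15.9%), against 1804 of 27305 genes (6.61%), and on the other strand in 4 (5.8%), against 5.66%. MATR3 and SNHG4, which both hold SNORA74A, have the same window and are counted separately among the 11. Among the hosts shown, RPS12, a ribosomal protein gene, has it at base 3 after the start, IPO7 from 4 bases before the start and ZBED3 from 16 bases before. The windows of NOL11, PPP1R8, COP1, KANSL2 and SNHG17 do not hold these letters. Of the hosts of other members called between the Transwell controls that have a window, RPL12 holds CTTTC from base 9 after the start, and KHDC4, MBD2 and RPL27A do not hold it. A match is a description of the letters, and host genes with the motif were not tested against those without.

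The proteins of the H/ACA particle and its assembly were measured for 8 of 9 listed genes, and the counts below stand beside 33.5% of all genes called over both control media (14.6% higher and 18.9% lower). Over both control media NOP10 (0.31, adjusted p 0.00191) and NHP2 (0.28, 0.0176), which sit in the finished particle, were higher in chips, while GAR1 (-0.31, 0.0319), also of the particle, and the assembly factor SHQ1 (-0.26, 0.000778) were lower. Of 5 measured Cajal body genes, 1 was higher and 3 were lower in chips, among them WRAP53 (-0.34, 0.0396) and GEMIN4 (-0.68, 5.75e-05), which belongs to the complex that assembles small nuclear particles. Of 6 box C/D particle genes 2 were higher and 4 lower. Of 9 genes for trimming and decay of guide ends 1 was higher, the deadenylase PARN (0.43, 3.12e-06), and 4 were lower, among them TOE1 (-0.99, 1.99e-09), which trims the 3′ ends of small nuclear and Cajal RNAs. Between the control media on Transwell inserts, SHQ1 (0.30, 0.029) and TOE1 (0.44, 0.0439) were higher in Transwell ZnO control. The telomerase RNA TERC, which carries an H/ACA domain but was not a member, differed by 0.18 between systems and did not pass.

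Several members share a host or nearly share a sequence. SNORA71A, SNORA71C and SNORA71D lie in SNHG17, SNORA2A and SNORA2B in KANSL2, SCARNA5 and SCARNA6 in ATG16L1, SNORA5A and SNORA5C in TBRG4, and SCARNA4 and SNORA80E in KHDC4. In TiO2 control medium SNORA71C (0.62) and SNORA71D (1.06) were both higher in chips, as were SCARNA5 (0.76) and SCARNA6 (0.74). Probes for such copies can bind each other's RNA, so members of the SNORA71, SNORA70, SNORA14, SNORA5, SNORA2, SNORA38 and SNORA80 families are uncertain as separate measurements.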

How the data were processed

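RNA (RNeasy Mini, per the labels' protocols) was hybridised to Affymetrix whole-transcript arrays. The deposited values are log2 values that the authors made with RMA, per the submitters' processing notes; the version is not given in the sources used here. The table held 53617 probe sets on 31 arrays, of which 23871 name 1 gene, 1842 several and 27904 none; genes came from the platform annotation, 22569 of these rows matched current gene names, and the brightest row per gene was kept. The number of arrays limits the precision. Array medians were 3.243 to 3.333 and correlations between arrays 0.9416 to 0.9867.

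limma 3.58.1 (R 4.3.3) fitted 1 mean per group over all 8 groups, with 23 residual and 4.77 prior degrees of freedom. In simulated data for chip against Transwell in ZnO control medium over 22395 genes, 91 of 100 genes changed by 1 and 100 of 100 changed by 2 (log2) were recovered, with 9 false calls. Named members were the 10 highest and 5 lowest by mean; in each comparison every member that passed where 8 or fewer did, otherwise up to 6 highest and 6 lowest that passed without overlap of the groups (no overlap rule for averages over media); the 3 smallest p where fewer than 3 passed; and the Cajal RNAs, hosts and listed genes. Members and lists were chosen with earlier results of these data known. ZnO against TiO2 in each system and the difference between media were added after seeing the data. Hosts were to be taken on the same strand, but the annotation table has none, so the strand was not applied. Alternatives covered weights, priors, filters, scaling, probe choice, a replicate block and omitted arrays. Same-numbered arrays did not deviate together.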

Additional observations from a re-analysis of the deposited data

Results flagged for a closer look

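Single arrays were compared with the rest of their group, in 112 groups of 4 arrays for the 16 members shown by sample and in 7 for the median of all members. 5 arrays lay apart by Dixon's criterion, all for single members; chance gives about 1 in 20. SCARNA3 read 3.89 on Transwell TiO2 control replicate 3, below the others, and SCARNA1 read 2.68 on Transwell TiO2 control replicate 2, above them. SNORA33 read 9.75 on chip TiO2 replicate 4 and 8.99 on Transwell ZnO replicate 1, both above their groups. SCARNA22 read 5.75 on Transwell ZnO control replicate 1, below its group.

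The chip minus Transwell difference differed between ZnO control and TiO2 control medium, by limma's test of that difference, for SCARNA3 (-1.93), SNORA37 (-1.27) and SNORA38B (-2.68). The call for SNORA38B was lost under most omissions of 1 array and under 3 other settings. All of these members had also passed between the Transwell control media, on arrays that this test shares.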

How the results depend on the processing

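Counts are of members that passed of 81. The counts between systems over both control media (26), in TiO2 control medium (21) and after ZnO (17) stayed within 1.5 times in total under each alternative run, but not by direction: over both control media 19 higher and 7 lower became 11 and 13 without chip ZnO control replicate 2, and 23 and 11 with array weights; the split after ZnO is given with its counts above. With all probe sets tested, the count was 6 after TiO2 (against 10) and 1 for Transwell ZnO against Transwell TiO2 (against 6). Array weights gave 26 for Transwell ZnO control against Transwell TiO2 control (against 12), 19 for Transwell ZnO against Transwell TiO2 and 8 for the difference between control media (against 3); fitting only the groups compared gave 23 and 21 for the Transwell contrasts. Without both chip TiO2-set arrays numbered 4, 1 passed for TiO2 against its control in chips, 1 for ZnO control against TiO2 control in chips, 2 for ZnO against TiO2 in chips and 5 for the difference between media. Each setting changes the genes or arrays tested or their weight, and otherwise the cause was not tested. The shares of all genes under these settings are not given here. Leaving out 1 array gave 20 to 26 over both control media, 17 to 23 in TiO2 control medium, 10 to 22 in ZnO control medium, 3 to 10 after TiO2 and 12 to 19 after ZnO. It gave 8 to 10 for Transwell ZnO control against TiO2 control, 0 to 5 for Transwell ZnO against TiO2, 0 to 1 and 0 to 2 for these contrasts in chips, 2 to 8 for the difference between media, and 0 for each exposure and response difference. With the 60th percentile of each array in place of the median, 64 to 68 members were above, and with the median of the named genes 60 to 65.

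Replicate numbers did not pair the arrays: deviations from group means correlated at a median of -0.007 for same-numbered arrays (-0.2157 to 0.1712) and 0.0009 for others. The replicate block gave 25 over both control media, 22 in TiO2 control medium, 15 in ZnO control medium, 10 after TiO2 and 18 after ZnO, 13 and 6 for the Transwell contrasts, 2 for the difference between media and 0 elsewhere. Of 86 results on members named by the rule for each comparison, 21 changed their call under at least 1 alternative, 20 by losing it. None changed direction. Other calls given above are outside this count, among them those of SCARNA5, SCARNA7 and SCARNA8, which were lost under several omissions.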
